A study of Mus musculus with 11 samples.

Results

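Arg1 encodes arginase 1, the cytosolic enzyme that splits arginine into ornithine and urea. It was taken by its symbol as 1 of the 754 genes of a myeloid gene panel, with earlier results of these data known. It is described here across the 4 groups of mice in which the panel was read.

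The study asked how macrophages of the peritoneal cavity respond to interleukin-4 with and without RELMα, the secreted protein encoded by Retnla. F4/80+CD11b+ peritoneal macrophages were sorted from 11 female C57BI/6 mice of 6 to 8 weeks, 1 mouse per sample, and their transcripts were counted on a Nanostring panel, Myeloid Innate Immunity v2. Rα+/+ mice were wild-type, whereas in RαTd/Td mice both copies of Retnla carried the TdTomato reporter in place of coding exons, a constitutive deletion made with a universal cre deleter line. IL-4c is IL-4 bound to an anti-IL-4 antibody, which prolongs its action. PBS or IL-4c was injected intraperitoneally on days 0 and 2, and cells were taken on day 4. The groups were PBS-treated Rα+/+ (mice 1 and 2), PBS-treated RαTd/Td (mice 3 and 4), IL-4c-treated Rα+/+ (mice 5, 6 and 7) and IL-4c-treated RαTd/Td (mice 9, 10, 11 and 12). A further Rα+/+ mouse given IL-4c, left out by the study itself, was not analysed here.

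Macrophages that meet IL-4 or IL-13 signal through the IL-4 receptor and the transcription factor STAT6 and take on a state known as alternative activation. Arg1 is a classical marker of that state in the mouse, along with Chil3 (Ym1) and Retnla. Its enzyme draws on the same substrate as the inducible nitric oxide synthase encoded by Nos2, which marks macrophages activated by interferon-γ and microbial products. Ornithine made by arginase feeds polyamine and proline synthesis. Resident macrophages of the peritoneal cavity divide in place when IL-4 is given.

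Values are normalized counts, the counts scaled by the authors to 4 housekeeping genes, with low values set to a floor of 30. Recovered counts summed to between 268858 and 574505 per mouse. All 7 macrophage markers (among them Adgre1, which encodes F4/80, and Itgam, which encodes CD11b) exceeded the floor in each of the mice given PBS, and the 5 eosinophil markers were at the floor in all 11 mice. After IL-4c Fcgr1 was at the floor in all but mouse 12. Csf1r, Cd14 and Mertk were called lower in both genotypes, whereas Adgre1 was called higher in Rα+/+ and Cd68 in RαTd/Td mice. S100a8, a neutrophil or monocyte marker, read 70.75, 82.49 and 74.75 in mice 1, 2 and 3 and at most 47.05 after IL-4c. Cpa3, a mast cell marker, was above the floor in mouse 1 alone, at 48.2. Retnla was at the floor in all 6 RαTd/Td mice and read 4631 and 4141 normalized counts in PBS-treated Rα+/+ mice. Mouse 12 stood apart within its group, with correlations of log2 values to mice 9, 10 and 11 between 0.951 and 0.973. Results are therefore also given without it where it changes them.

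In PBS-treated Rα+/+ mice, Arg1 read 1532 normalized counts in mouse 1 and 5062 in mouse 2. In PBS-treated RαTd/Td mice it read 510 in mouse 3 and 753 in mouse 4. All 4 resting samples thus held Arg1 transcript well above the floor, and the 2 groups did not overlap. After IL-4c, Rα+/+ mice read 35072, 30921 and 31521 normalized counts in mice 5, 6 and 7. IL-4c-treated RαTd/Td mice read 31032, 33469, 23131 and 33953 in mice 9, 10, 11 and 12. Every IL-4c-treated mouse lay above every PBS-treated mouse, and the genotypes overlapped after IL-4c, with mouse 11 the lowest.

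**Figure D1:**
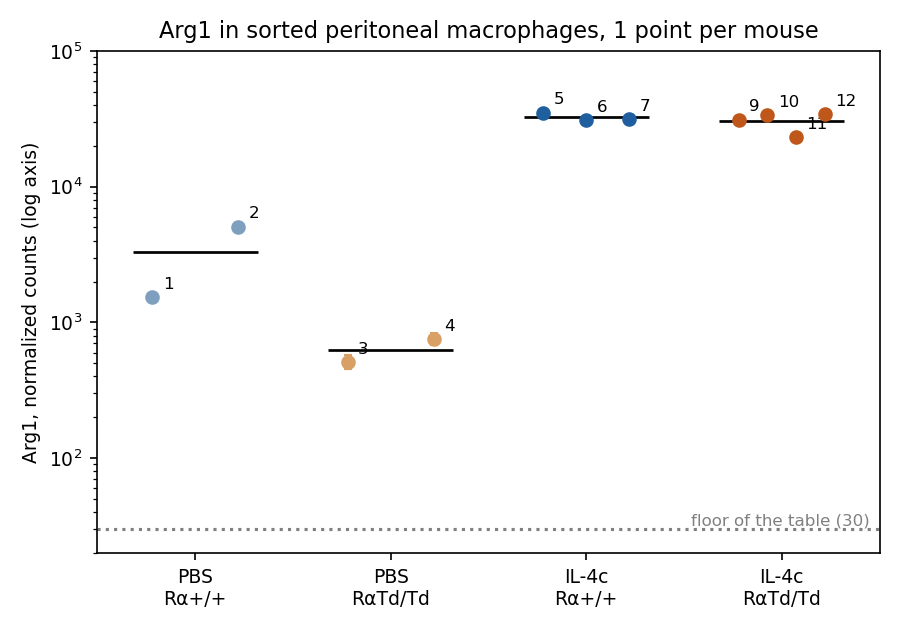
Arg1 in normalized counts on a log axis, with 1 point per mouse, labelled by its number, for the 4 groups. Bars on points are 95% Poisson intervals of the counts, black lines are group means, and the dotted line is the floor of 30. The IL-4c-treated mice lie between 23131 and 35072 and the PBS-treated mice between 510 and 5062.

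Ordered by mean, Arg1 was lowest in PBS-treated RαTd/Td mice, at 632 ± 172 normalized counts (SD, n = 2). PBS-treated Rα+/+ mice followed at 3297 ± 2496 (SD, n = 2). IL-4c-treated RαTd/Td mice held 30396 ± 5009 (SD, n = 4), and IL-4c-treated Rα+/+ mice held 32505 ± 2244 (SD, n = 3). The last 2 differed by less than their spread.

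The spread was widest at rest and narrowest after IL-4c in Rα+/+ mice. Mouse 2 held 3.30 times the Arg1 of mouse 1, a coefficient of variation of 75.7%, against 27.2% in PBS-treated RαTd/Td, 6.90% in IL-4c-treated Rα+/+ and 16.5% in IL-4c-treated RαTd/Td mice. The gap between mice 1 and 2 was larger than the counting error. Arg1 stood on 953 recovered counts in mouse 1 and 6750 in mouse 2, and the 95% Poisson intervals, 1437 to 1633 and 4942 to 5184 normalized counts, were far apart. The lowest number was 273 in mouse 3, with an interval of 451 to 574 normalized counts. These intervals cover counting error only. Mouse 2 also stood apart in depth, with 551546 recovered counts against 268858 to 297254 in mice 1, 3 and 4. Its counts were scaled by a factor of 0.75, against 1.61 to 1.88 in those mice. The part of depth and scaling in the gap was not tested. Over all 11 mice the residual SD of Arg1 was 0.52 on the log2 scale, rank 31 from the widest among 445 genes tested, whose median was 0.21.

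As a share of all recovered counts, Arg1 made up 0.321% (95% Wilson interval 0.301% to 0.342%) in mouse 1, 1.22% in mouse 2, 0.102% in mouse 3 and 0.143% in mouse 4. After IL-4c it made up 4.73% to 6.28% in Rα+/+ mice and 4.56% to 6.62% in RαTd/Td mice. Retnla itself took up a large share of the counts in IL-4c-treated Rα+/+ mice only, and with it left out the share of Arg1 there was 6.37% to 7.92%.

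IL-4c raised Arg1 in both genotypes. In Rα+/+ mice the log2 fold change was 3.54 (SE 0.41, 95% interval 2.61 to 4.47), an 11.6-fold rise, with an adjusted p of 0.000136 by limma with Benjamini-Hochberg adjustment. In RαTd/Td mice it was 5.60 (SE 0.39, 95% interval 4.72 to 6.48), a 48.4-fold rise, with an adjusted p of 3.53e-06. The direction held in all 3 Rα+/+ and all 4 RαTd/Td mice. The size in Rα+/+ mice depended on which PBS-treated mouse stood for rest, with a log2 fold change of 2.68 without mouse 1 and 4.40 without mouse 2, where the lone mouse left was assumed to vary like the other groups.

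Few genes rose more. Arg1 ranked 7 of 445 tested genes in Rα+/+ mice, after Chil3, Chil4, Rnase2a, Retnla, Il1rl1 and Ccnb2, and 4 in RαTd/Td mice, after Chil3, Chil4 and Rnase2a. In Rα+/+ mice 13.9% of tested genes rose and 32.4% fell, which is 62 and 144 genes, and in RαTd/Td mice 15.3% rose and 36.6% fell, which is 68 and 163 genes. This split moved with the scaling. It was 106 higher and 92 lower in Rα+/+ mice with each mouse centred on its median gene, 104 and 107 after quantile normalization, and 180 and 13 when scaled to the positive control probes. In RαTd/Td mice the same scalings gave 104 and 110, 89 and 109, and 193 and 6. The median gene shifted by -0.18 in Rα+/+ and -0.23 in RαTd/Td mice, so that Arg1 rose by 3.72 and 5.83 relative to it on the log2 scale.

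In sorted bulk samples, fewer cells of a type and less RNA per cell cannot be told apart. Of the other marker lists, the B cell list had 1 gene on the panel, Ms4a1, which encodes CD20. It read between 105 and 242 normalized counts in the PBS-treated mice and was at the floor after IL-4c in all but mouse 12, at 63.1. The 4 measured markers of large peritoneal macrophages summed to between 15076 and 19373 normalized counts after PBS and between 5959 and 10544 after IL-4c. Alox15, Timd4 and Selp were lower in every IL-4c-treated mouse than in any PBS-treated mouse, whereas Gata6 overlapped, at 503 to 712 and 536 to 654. No eosinophil marker rose above the floor in any mouse. The part of the first 2 lists in the Arg1 response was not tested.

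Without IL-4c, Arg1 was lower in RαTd/Td than in Rα+/+ macrophages. The log2 difference was -2.17 (SE 0.45, 95% interval -3.18 to -1.15), a 4.49-fold lower level, with an adjusted p of 0.0215 by limma. Only Retnla, the deleted gene, was lower still among the 445 genes tested. Between the genotypes after PBS the share of tested genes called was 9.66%, with 36 higher and 7 lower in RαTd/Td mice. That split was 16 and 10 after centring, 15 and 8 after quantile normalization, 11 and 5 when scaled to total counts without Retnla, and 0 and 2 when scaled to the positive controls. Relative to the median gene the Arg1 difference was -2.27.

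This call rested on 2 mice per group. Arg1 was lower in both RαTd/Td mice than in both Rα+/+ mice, a lack of overlap shared by 49.0% of tested genes, and an exact permutation test of 2 against 2 mice cannot give a two-sided p below 0.333. With the spread estimated from those 2 groups alone the adjusted p by limma was 0.331. Without mouse 2, the PBS-treated Rα+/+ mouse with the most Arg1, the difference was -1.30 (adjusted p 0.0532 by limma), and without mouse 1 it was -3.03, still called. It was also lost without mouse 3 (-1.89, adjusted p 0.118), mouse 4 (-2.45, adjusted p 0.0817) and mouse 10 (-2.17, adjusted p 0.0504). In all, 13 of 24 alternatives kept the call, and the difference stayed below 0 in each of them, between -3.03 and -1.30.

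**Figure D2:**
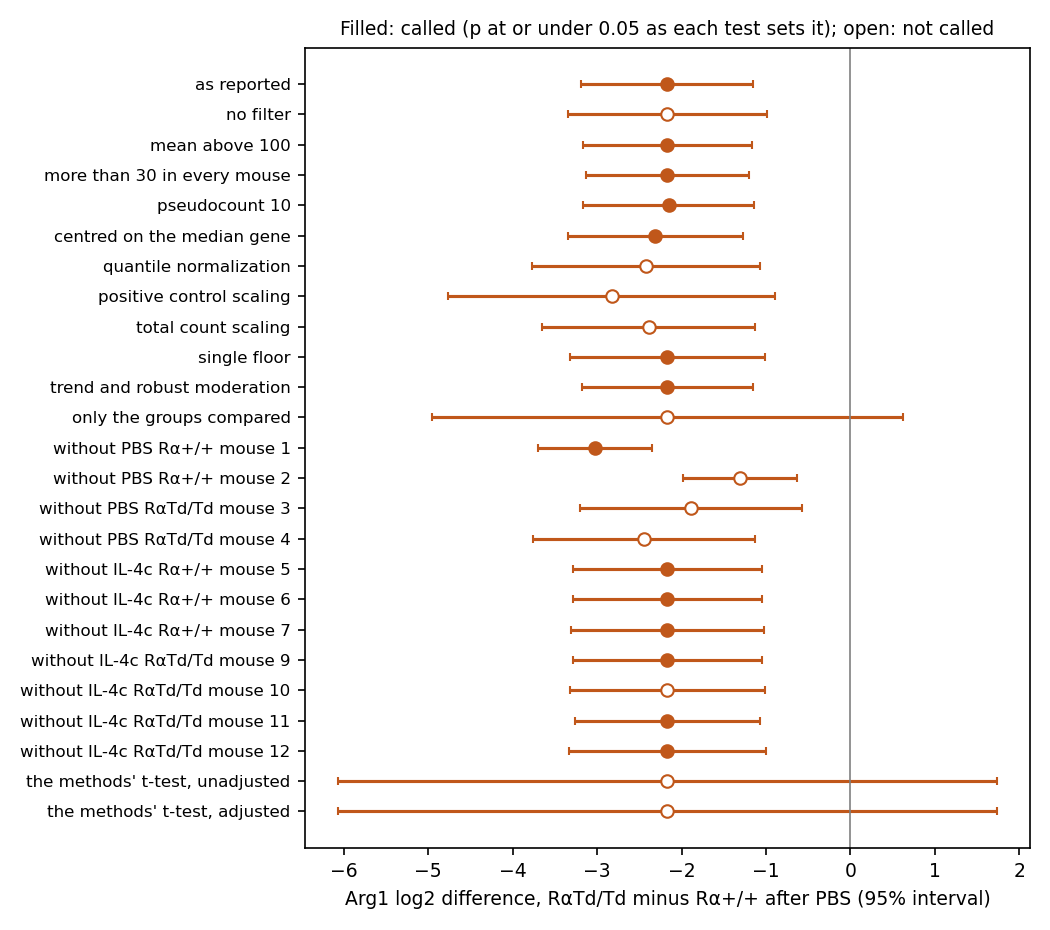
The Arg1 log2 difference between PBS-treated RαTd/Td and Rα+/+ mice as reported and under 24 alternatives, with 95% intervals. Filled points were called and open points were not. All values lie between -3.03 and -1.30, and 11 of the alternatives lost the call.

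MHC class II genes, which are among the markers of small peritoneal macrophages, also differed in level between the genotypes in the same mice. Of their 6 genes, 5 (the MHC class II genes H2-Aa, H2-Ab1, H2-Eb1 and Cd74, and Ccr2) were above the floor, and their sum was 7411 to 9162 normalized counts in PBS-treated Rα+/+ and 24237 to 32516 in PBS-treated RαTd/Td mice. H2-Aa, H2-Ab1 and Cd74 were called higher in RαTd/Td mice, whereas H2-Eb1 was not (adjusted p 0.0929 by limma) and Ccr2 overlapped, at 175 and 353 against 249 and 259. When scaled to the positive controls no gene was called higher here, so these calls were lost. Itgax was at the floor in every mouse. The sum of the large peritoneal macrophage markers overlapped, at 15076 to 19373 and 18502 to 18875. Of these markers, Timd4 did not overlap, at 3970 and 2567 in PBS-treated Rα+/+ against 4130 and 4623 in PBS-treated RαTd/Td mice. Its log2 difference of 0.45 was not called, and 49.0% of tested genes shared this lack of overlap. The part of these cells in the Arg1 difference was not tested.

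After IL-4c, no difference in Arg1 between genotypes was detected. The log2 difference was -0.11 (SE 0.35, 95% interval -0.89 to 0.67, adjusted p 0.88 by limma). The interval still allowed Arg1 in RαTd/Td mice to be lower by 0.89 or higher by 0.67 on the log2 scale. It used a spread shared with the PBS-treated groups, and with only the groups compared it was -0.48 to 0.26. The sign of the difference turned to 0.50 after quantile normalization and to 0.01 without mouse 11, the IL-4c-treated RαTd/Td mouse with the least Arg1. No alternative called the difference. This comparison called 2.7% of tested genes, of which 7 were higher and 5 were lower in RαTd/Td mice. The scalings gave 3 and 5 after centring, 5 and 7 after quantile normalization, 0 and 4 on total counts without Retnla, and 0 and 6 on the positive controls.

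The response to IL-4c was larger in RαTd/Td mice by 2.06 on the log2 scale (SE 0.57, 95% interval 0.77 to 3.34). Its unadjusted p was 0.00527, and its adjusted p of 0.10 by limma did not pass. Arg1 ranked 5 of 445 genes from the highest in this comparison. Here 2.02% of genes were called, 3 with a higher and 6 with a lower response in RαTd/Td mice, or 2 and 8 on total counts without Retnla. The value came from the resting side, since the groups differed by -2.17 after PBS and -0.11 after IL-4c. Without mouse 1 it was 2.92 and passed (adjusted p 0.00201), and without mouse 2 it was 1.19. A difference between the genotypes in the Arg1 response was therefore called or not depending on 1 PBS-treated Rα+/+ mouse.

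**Figure D3:**
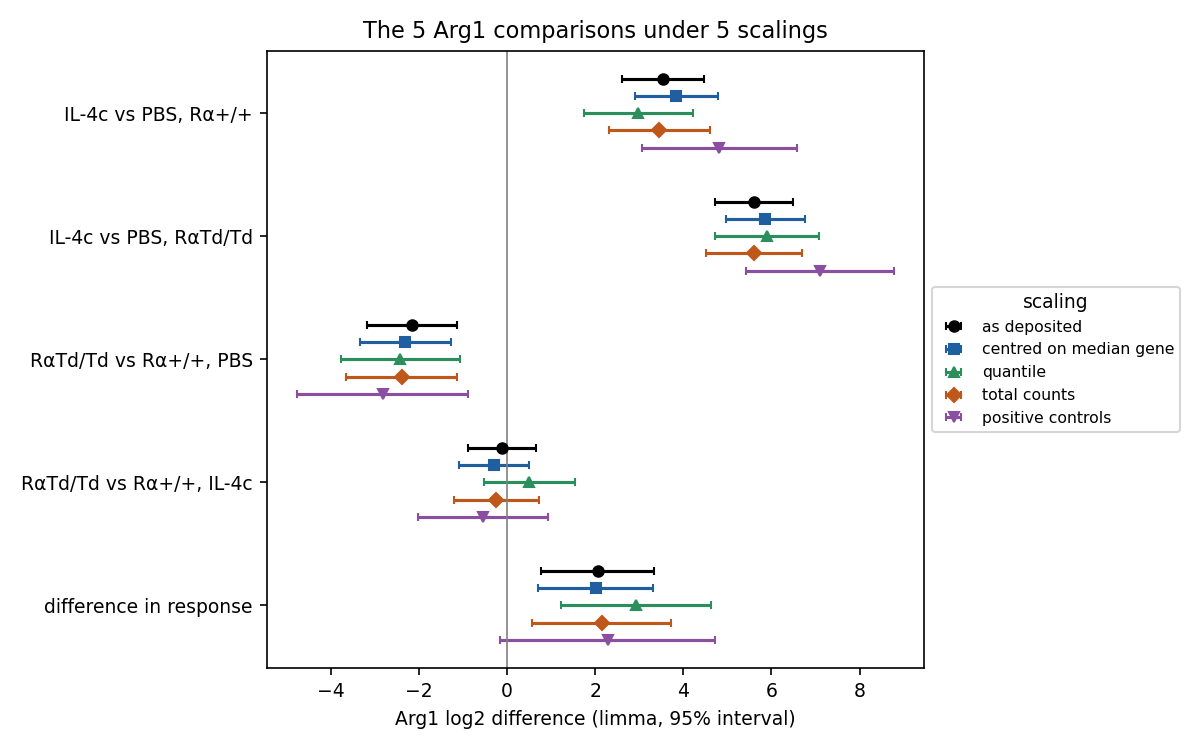
The 5 Arg1 comparisons as log2 differences with 95% intervals from limma, each under 5 scalings of the values. The IL-4c rise lies above 0 in both genotypes under all 5 scalings. The difference between genotypes after IL-4c straddles 0 in each.

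Tests on Arg1 alone gave the same order. Averaged over genotypes, IL-4c-treated mice were higher by 4.57 on the log2 scale, with a two-sided p of 0.00667 in an exact permutation test of treatment within genotype, the smallest that the 150 arrangements allow. Averaged over treatments, RαTd/Td mice were lower by 1.14 (a log2 difference of -1.14), with a two-sided p of 0.114 in an exact permutation test over 210 arrangements, whose smallest possible p was 0.00476. That genotype difference passed under 2 scalings, with exact permutation p-values of 0.019 after centring and 0.0143 on the positive controls.

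Of the genes for arginine metabolism, the panel held Arg1 and Nos2 of a list of 22. Nos2, the inducible nitric oxide synthase that uses the same substrate, was at the floor in all 11 mice. Neither PBS- nor IL-4c-treated macrophages of either genotype thus showed measurable Nos2, while Arg1 was measurable in every one. Arg2, which encodes the mitochondrial arginase, was not on the panel.

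Arg1 belongs to the alternative activation list, which held members called in both directions. Of its 27 genes 21 were on the panel and 16 were tested, and in Rα+/+ mice 5 rose, 6 fell and 5 did not pass, with a median log2 fold change of 0.05 against -0.18 over all tested genes. In RαTd/Td mice 6 rose, 4 fell and 6 did not pass, with a median of 0.05 against -0.23. Of all tested genes 13.9% and 15.3% rose and 32.4% and 36.6% fell, so that the share of members that fell was near or under that of all genes.

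Chil3, Chil4 and Rnase2a, which rose more than Arg1 in both genotypes, encode secreted proteins and were at or near the floor at rest. Chil3, a chitinase-like protein, was unmeasurable (at the floor) without IL-4c in all 4 mice and read 43527 to 91581 normalized counts after IL-4c, at least 1902-fold higher in Rα+/+ and at least 1084-fold higher in RαTd/Td mice. Chil4, its close paralogue, was above the floor in mouse 1 alone at rest, at 53.1, and read 33420 to 72000 after IL-4c. Sequences of this pair are near identical, so their probes may share targets. Rnase2a, a secreted ribonuclease, went from the floor without IL-4c to between 1430 and 5703, at least 72.5-fold and 46.8-fold higher. Lower bounds are against the lowest value each mouse could show, 30.5 to 56.3 normalized counts. In Rα+/+ mice Retnla had a log2 fold change of 5.03 and reached, from 4631 and 4141 at rest, between 115676 and 171588 normalized counts. Of these 5 genes, Arg1 alone was above the floor at rest in every mouse of both genotypes.

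Mrc1, the mannose receptor, and Tgm2, a transglutaminase, were called in RαTd/Td mice and not in Rα+/+ mice. Mrc1 read 162 and 203 in PBS-treated Rα+/+ mice, 123 and 135 in PBS-treated RαTd/Td, 129 to 311 in IL-4c-treated Rα+/+ and 253 to 989 in IL-4c-treated RαTd/Td mice, with mouse 12 the highest. Its log2 fold change was 1.69 in RαTd/Td mice (adjusted p 0.0218 by limma, 1.27 without mouse 12) and 0.24 in Rα+/+ mice (not called). That call was lost without mouse 3, 4 or 10, with adjusted p-values up to 0.112. Tgm2, outside the rule for named genes and picked after its values were seen, had log2 fold changes of 2.59 (called) and 0.63 (not called). Without mouse 3 or mouse 4 the first was 1.89 or 3.29. Tgm2 was at the floor in mouse 3, where the lowest value that could show was 56.1, and read 80.8 in mouse 4. The size of its rise in RαTd/Td mice thus rests partly on the floor. The difference between genotypes in the response was not called for either gene.

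Among the members that fell was Clec7a, which encodes the β-glucan receptor Dectin-1. Clec7a read 229 to 509 normalized counts at rest. After IL-4c it was at the floor in mice 5, 7 and 9 and otherwise read 37.6 to 165, with mouse 12 the highest. Its log2 fold changes of -3.28 in Rα+/+ and -2.86 in RαTd/Td mice thus rest partly on the floor. Ccl24, an eosinophil chemoattractant, fell by 1.99 on the log2 scale in Rα+/+ mice and was at -1.30 in RαTd/Td mice (not called, but -1.82 and called without mouse 12). The first was lost without mouse 1, 2 or 7 (adjusted p up to 0.116 by limma). Trem2, a lipid-sensing receptor, fell by 1.95 in Rα+/+ mice, lost without mouse 1, 2, 6 or 7 (adjusted p up to 0.122), and was at -0.12 in RαTd/Td mice, where its sign turned under 3 scalings and without mouse 4, 9, 10 or 11. Without mouse 12 that value was -0.62.

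Between genotypes after PBS, 2 of the 16 members were called, Arg1 and Retnla, both lower in RαTd/Td mice. The share over all tested genes was 9.66%, and Retnla is the deleted gene. After IL-4c and in the difference in response, 1 member was called, Retnla, where the shares over all tested genes were 2.7% and 2.02%.

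**Figure D4:**
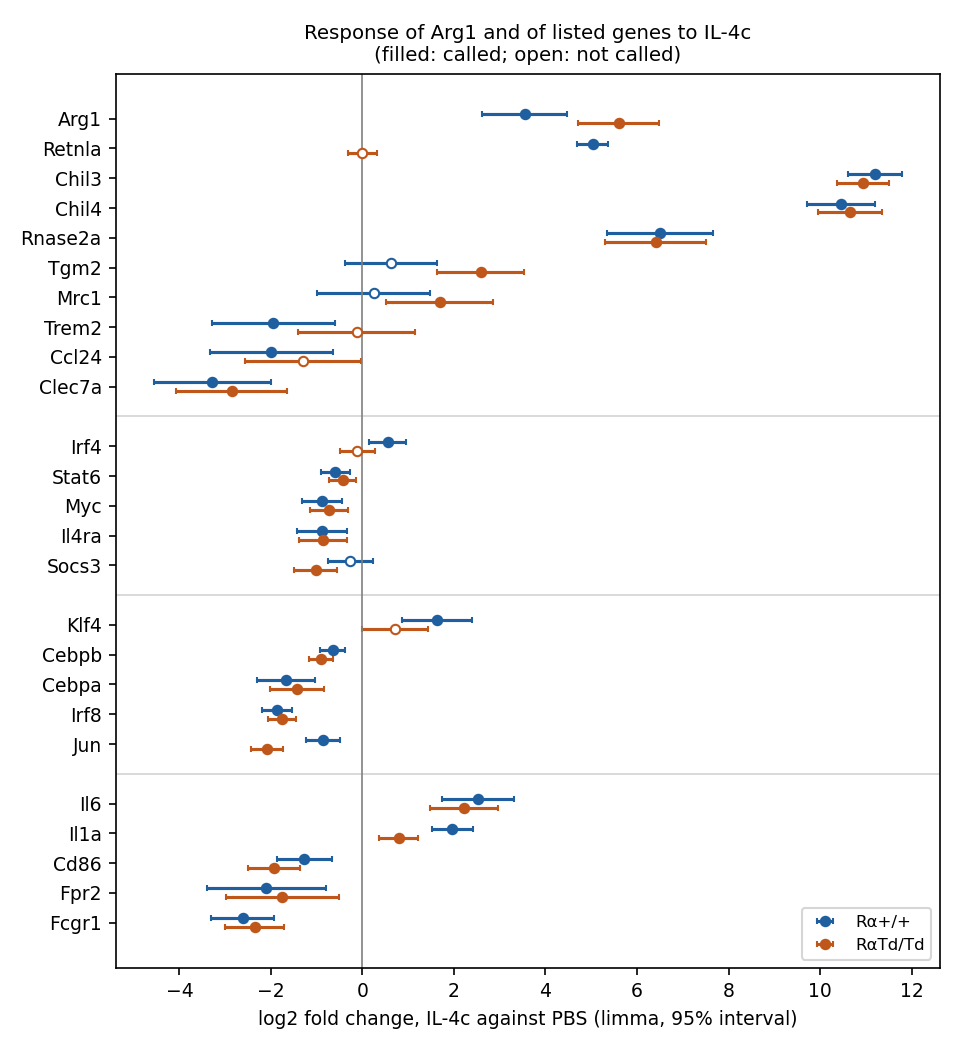
Log2 fold changes after IL-4c in Rα+/+ (blue) and RαTd/Td (orange) mice with 95% intervals, for Arg1 and named genes of the alternative activation, IL-4 signalling, Arg1 locus factor and classical activation lists, from the top down. Filled points were called. Arg1 stands at 3.54 and 5.60, below Chil3, Chil4 and Rnase2a in both genotypes.

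For the IL-4 receptor and its signalling genes, more members were called lower than higher. Of a list of 24 genes 12 were on the panel and 6 were tested, and 1 rose, 3 fell and 2 did not pass in Rα+/+ mice, against 0, 4 and 2 in RαTd/Td mice. With 6 genes tested, these counts can be set only loosely beside the 13.9% and 15.3% of all genes that rose and the 32.4% and 36.6% that fell. The median was -0.54 and -0.58, against -0.18 and -0.23 over all tested genes. Il4ra, the receptor chain that binds IL-4, read 300 to 464 normalized counts at rest and 120 to 288 after IL-4c, without overlap. It had log2 fold changes of -0.89 in Rα+/+ and -0.87 in RαTd/Td mice. Stat6, the factor that carries the signal to the nucleus, read 483 to 605 at rest and 319 to 508 after IL-4c, with log2 fold changes of -0.59 and -0.43.

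Myc, a growth regulator, fell by 0.88 and 0.73, and Socs3, an inhibitor of cytokine signalling, fell by 1.02 in RαTd/Td mice and was at -0.26 in Rα+/+ mice. Irf4, a factor that acts in alternative activation, rose by 0.55 in Rα+/+ mice and was at -0.11 in RαTd/Td mice. The falls of Il4ra, Stat6 and Myc in both genotypes and of Socs3 in RαTd/Td mice held their direction after centring and quantile normalization and turned to rises when scaled to the positive controls. Centring ended the calls of Stat6 and Myc in both genotypes, and quantile normalization those of Il4ra in both and of Stat6 and Myc in RαTd/Td mice. The Il4ra calls were lost without mouse 1 or 2 in Rα+/+ and without mouse 4 in RαTd/Td mice, those of Stat6 and Myc in RαTd/Td mice without mouse 4 (Stat6 also without mouse 3), and that of Irf4 without mouse 2 or 6, with adjusted p-values by limma up to 0.205. No member was called between genotypes. After PBS Il4ra was at 0.41 (95% interval -0.19 to 1.01) and Stat6 at 0.17 (95% interval -0.17 to 0.51) in RαTd/Td against Rα+/+ mice.

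Of the factors known to act at the Arg1 locus, more were called lower than higher after IL-4c. Of 15 such genes 10 were on the panel and 9 were tested, and 1 rose and 6 fell in Rα+/+ mice, against 0 and 5 in RαTd/Td mice. Of all tested genes 13.9% and 15.3% rose and 32.4% and 36.6% fell. The list's median was -0.59 and -0.43, against -0.18 and -0.23 over all tested genes. Klf4, a factor that cooperates with STAT6, rose by 1.64 in Rα+/+ mice, from 791 and 754 normalized counts to between 2074 and 2908. In RαTd/Td mice it was at 0.71, not called, and at 0.97 and called without mouse 12. Cebpb, a factor needed for Arg1 induction, read 3976 to 5266 at rest and 2531 to 3017 after IL-4c, with log2 fold changes of -0.65 and -0.90. Cebpa, a myeloid lineage factor, fell by 1.67 and 1.43. Irf8, a factor of the monocyte lineage, went from 87.8 to 125 normalized counts at rest to the floor in each of the 7 mice given IL-4c, at least 3.20-fold and 3.23-fold lower.

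Jun, a subunit of AP-1, was the member that differed between genotypes in its response. Jun read 267 and 243 normalized counts in PBS-treated Rα+/+ mice and 533 and 595 in PBS-treated RαTd/Td mice, against 114 to 170 in all IL-4c-treated mice. It was higher in RαTd/Td mice at rest by 1.14 (adjusted p 0.00565 by limma), the opposite of Arg1 in the same mice. After IL-4c it had log2 fold changes of -0.86 in Rα+/+ and -2.08 in RαTd/Td mice, and the difference in response was -1.22 (adjusted p 0.022 by limma). That call was lost without any 1 of mice 2, 4, 5, 6, 7 and 10, with adjusted p-values up to 0.124, and the one at rest without mouse 4 (adjusted p 0.0681). Stat3, which carries IL-6 and IL-10 signals, was higher in RαTd/Td mice at rest by 0.42 (adjusted p 0.0388 by limma, lost without mouse 3, 4 or 5, up to 0.152). These 2 of 9 were the members called between genotypes after PBS, where 9.66% of all tested genes were called. In the difference in response that share was 2.02%. Scaled to the positive controls, no gene was called higher in RαTd/Td mice after PBS, so both calls at rest were lost. The falls of Cebpb in both genotypes, Jun in Rα+/+ and Cebpa in RαTd/Td mice turned when scaled to the positive controls, and centring ended the calls of Cebpb in Rα+/+ mice, of Stat3 at rest and of the Jun difference in response.

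Of the classical activation genes, too, more were called lower than higher. Of 23 genes 22 were on the panel and 12 were tested, and 2 rose, 8 fell and 2 did not pass in each genotype. Over all tested genes 13.9% rose and 32.4% fell in Rα+/+ mice, and 15.3% rose and 36.6% fell in RαTd/Td mice. The list's medians of -0.68 and -0.79 stand against -0.18 and -0.23. Fcgr1, the high-affinity IgG receptor, read 162 to 220 normalized counts at rest and was at the floor after IL-4c in all but mouse 12, at 64.3. Cd86, a costimulatory ligand, fell by 1.27 and 1.93. Fpr2, a formyl peptide receptor, fell by 2.10 and 1.75, sizes that rest partly on the floor. It was at the floor in IL-4c-treated Rα+/+ mice 5, 6 and 7, at least 3.75-fold lower than at rest. In RαTd/Td mice it read 189 and 210 at rest. After IL-4c it was at the floor in mice 9 and 10 and read 109 and 117 in mice 11 and 12. The 2 called higher were Il6 and Il1a, both cytokines. Il6 was at the floor at rest and read 81.5 to 217 after IL-4c, at least 4.63-fold and 2.57-fold higher. Il1a read 108 to 141 in IL-4c-treated Rα+/+ and 40.0 to 68.2 in IL-4c-treated RαTd/Td mice, a log2 difference of -1.17 (adjusted p 0.00594 by limma). At rest Il1a was at the floor, and its rise in Rα+/+ mice was at least 3.11-fold. In PBS-treated RαTd/Td mice 3 and 4 the lowest values that could show were 56.1 and 56.3. The called rise of Il1a in RαTd/Td mice can thus come from the floor alone. The Cd86 call in Rα+/+ mice was lost without mouse 1 (adjusted p 0.0519), and those of Fpr2 without mouse 1 in Rα+/+ and without mouse 3, 4 or 10 in RαTd/Td mice (up to 0.139).

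Genes whose pattern was most like that of Arg1 were ranked by Pearson r of log2 values over the 11 mice, given as a description. The points share the split between PBS and IL-4c, which sets most of each value, and 27 of 444 other tested genes had an r above 0.9. Among the highest were Adam8 (r = 0.967), which encodes a membrane protease, Mcm5 (0.960), a subunit of the replicative helicase, Top2a (0.954), topoisomerase IIα of dividing cells, and Txn1 (0.947), thioredoxin. Chil4 and Chil3 both stood at 0.942, Rnase2a at 0.935, Mrc1 at 0.632 and Retnla, which the RαTd/Td mice lack, at 0.269.

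Some of these genes also shared with Arg1 that mouse 2 was the highest of the resting mice, though not the full order of these mice. Adam8 read 510 and 734 normalized counts in mice 1 and 2, 385 and 331 in mice 3 and 4, and 966 to 1439 after IL-4c. As for Arg1, mouse 2 was the highest of the PBS-treated mice and the RαTd/Td mice were the lowest. Mcm5 read 94.9 and 310 in mice 1 and 2, 118 and 84.5 in mice 3 and 4, and 393 to 592 after IL-4c. Mouse 2 was thus also the highest resting mouse for Mcm5, as it was for Txn1 (3376, against 2693 to 2733 in the other PBS-treated mice), whereas for Top2a the resting mice lay close, at 56.1 to 78.8. The values of the resting mice were part of what ranked these genes, so that they are no separate support for the Arg1 value of mouse 2. The rises of Adam8, Mcm5 and Txn1 after IL-4c in Rα+/+ mice, by 0.84, 1.47 and 0.50, were called but lost without mouse 1, at 0.58, 0.62 and 0.35. Without mouse 2, the rise of Mcm5 was 2.32. In RαTd/Td mice Adam8, Mcm5 and Txn1 rose by 1.75, 2.23 and 0.71, and Top2a rose by 3.09 in Rα+/+ and 3.23 in RαTd/Td mice.

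The lowest r values belonged to Skil (-0.990), a repressor of TGF-β signalling, Peli1 (-0.986), a ubiquitin ligase of Toll-like receptor signalling, and Cebpb (-0.979), one of the locus factors above. Peli1 read 214 and 165 normalized counts in mice 1 and 2, 265 and 250 in mice 3 and 4, and 105 to 140 after IL-4c. Here mouse 2 was the lowest and the RαTd/Td mice the highest at rest, the mirror of Arg1. Skil read 45.7 to 78.9 at rest and was at the floor after IL-4c in all but mouse 9, at 31.4, so its values after IL-4c carry no order. Peli1 fell by 0.73 and 1.12 after IL-4c as deposited and turned to rises of 0.54 and 0.38 when scaled to the positive controls, and its call in Rα+/+ mice was lost after centring.

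**Figure D5:**
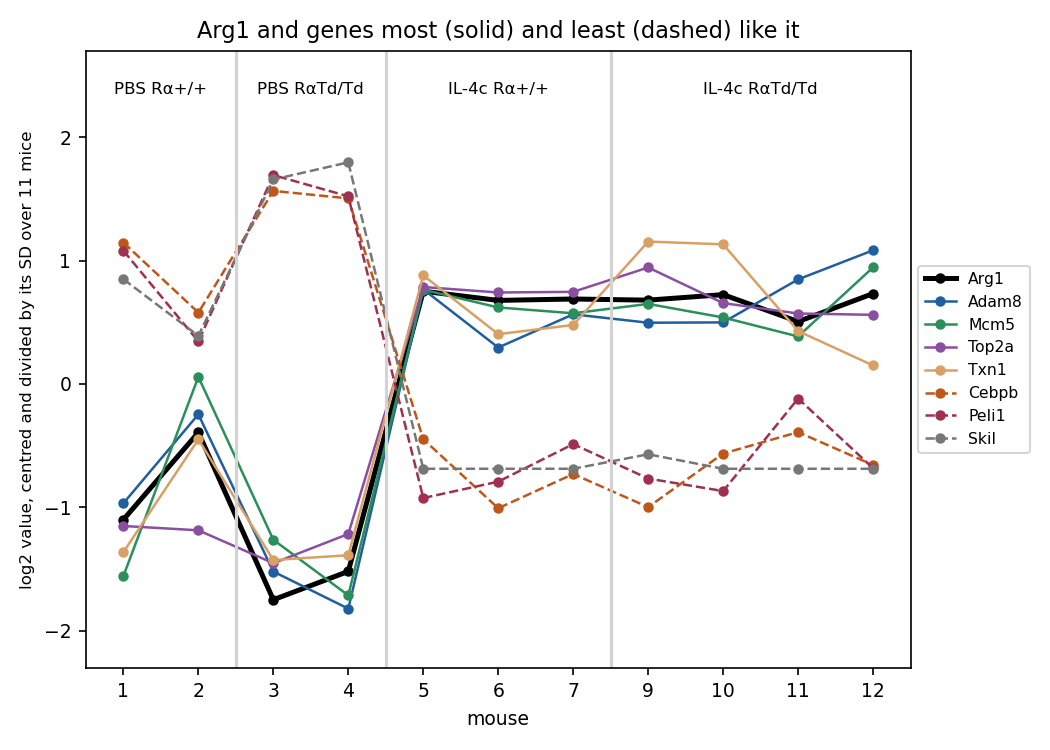
Log2 values of Arg1 (black), 4 of the genes most like it (solid) and the 3 least like it (dashed) in each of the 11 mice, each gene centred and divided by its own SD. The solid lines rise and the dashed lines fall from the PBS-treated to the IL-4c-treated mice, and mouse 2 lies nearest to the IL-4c-treated mice among the resting mice for 4 of the 5 solid lines.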

How the data were processed

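The authors counted transcripts of sorted macrophages with the Nanostring panel and scaled the counts by 4 housekeeping genes, using Nanostring's Advanced Analysis software. The deposited gene values are linear signal in normalized counts, while the 14 control probes stayed raw counts. Tests on the values showed 1 factor per mouse and a floor of 30, and dividing by that factor gave the recovered counts, whole within 0.1 over the values up to 1000 used to find it. All 11 columns were used, with 1 mouse each. The chi-square per degree of freedom between mice of a group was 4.70 to 137, so none was a repeat of another. P-values measure only the spread between these mice of a single experiment.

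The 445 of 754 genes with a mean above 30 were tested on log2(value + 1), computed from the deposited signal, with limma 3.58.1 in R 4.3.3. The fit had 1 coefficient per group over all 11 mice, and p-values were Benjamini-Hochberg adjusted over all tested genes, with 0.05 or less called. Fold changes are on the log2(value + 1) scale, where the added 1 understates changes of low genes. For values at the floor the true level is unknown, and a change can also be overstated. Chil3 in Rα+/+ mice gave a 2363-fold rise, against a lower bound of 1902-fold. Exact permutation tests used SciPy 1.17.1 and Python 3.11.15. The fits were tested on simulated data with known changes. A value was above the floor once both its recovered count and its normalized count reached 30.

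Besides Arg1, the text names Arg2, Nos2, Il4ra, Stat6, Retnla, Chil3 and Mrc1. Of each of 5 lists it names, among called members, the top 3 risers and the top 3 fallers after IL-4c and each member called between genotypes or in the difference of response, and by Pearson r the 5 genes most and 3 least like Arg1. Some of these are not reported here. Arg1, the lists and this rule were chosen with earlier results of these data known. Alternatives were other filters, 10 added in place of 1, 4 scalings, a single floor of 56.3, trend and robust moderation, only the groups compared, each mouse left out, and the unpaired t-test of the study's methods. Scaling to total counts without Retnla was added after seeing the data. A planned test for whole counts was not run, since values at the floor have no count.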

Additional observations from a re-analysis of the deposited data

Results flagged for a closer look

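Among the 4 IL-4c-treated RαTd/Td mice, the only group large enough to be checked in this way, none was far from the others in Arg1. Checked were 33 genes, without those named only as cell type markers. Of these, 3 had 1 of the 4 IL-4c-treated RαTd/Td mice far from the rest. The measure was the gap to the nearest mouse divided by the group's range on the log2 scale. This ratio was 0.885 for Trem2, with mouse 12 at 342 normalized counts. It was 1.0 for Fcgr1, with mouse 12 at 64.3, and 1.0 for Skil, with mouse 9 at 31.4, where the other 3 mice were at the floor, so that any value above it gives this ratio. Chance gives such a value in about 1 in 20 groups. Ms4a1, a B cell marker that was not checked, read 63.1 in mouse 12 and was at the floor in mice 9, 10 and 11.

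The response to IL-4c differed between the genotypes for Jun, by -1.22 on the log2 scale (adjusted p 0.022 by limma), and for Retnla, by -5.03, the rise in Rα+/+ mice, since the RαTd/Td mice were at the floor. The Jun call was lost without any of mice 2, 4, 5, 6, 7 and 10, and after centring. For Arg1 the difference of 2.06 did not pass.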

How the results depend on the processing

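The Arg1 rise after IL-4c was called under all 24 alternatives in both genotypes, between 2.68 and 4.82 in Rα+/+ and between 5.32 and 7.11 in RαTd/Td mice on the log2 scale. Leaving out 1 mouse at a time gave 2.68 to 4.40 and 5.32 to 5.88. For RαTd/Td against Rα+/+ after PBS, leaving out 1 mouse gave -3.03 to -1.30, and the call was lost with no filter (-2.17, adjusted p 0.0807), quantile normalization (-2.42, 0.0541), positive control scaling (-2.83, 0.592), total count scaling without Retnla (-2.39, 0.0549, chosen after seeing the data), only the 2 groups compared (-2.17, 0.331) and the methods' t-test (-2.17, unadjusted p 0.139, adjusted 0.512). Why the call was lost under these alternatives was not tested. After IL-4c the genotype difference turned to 0.50 under quantile normalization, in which Retnla holds a top rank in Rα+/+ mice alone, and ranged from -0.17 to 0.015 with 1 mouse left out. The difference in response ranged from 1.19 to 2.92 with 1 mouse left out and was called in 1 of 21 alternatives, without mouse 1. In the exact permutation tests, leaving out 1 mouse gave 4.14 to 5.00 for treatment and -1.57 to -0.71 for genotype, and the genotype effect passed after centring (-1.31) and on the positive controls (-1.69).

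The count of members called after IL-4c in either genotype stayed within 1.5 times except as follows. On the positive controls it was 2 for IL-4 signalling, 8 for alternative activation, 4 for classical activation and 4 for the locus factors. With more than 30 in every mouse it was 7 for alternative and 7 for classical activation, and with a mean above 100 it was 7 for classical activation, since fewer genes were tested. Leaving out 1 mouse gave 4 to 6, 11 to 14, 10 to 11 and 6 to 8 in that order, and 1 for the arginine list.

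For the other named genes, 59 values were called as reported, of which 42 stayed called with any 1 mouse left out. Over 1660 values under alternatives, 1508 kept direction and call, 110 lost it, 7 gained it and 35 changed sign. On the positive controls the IL-4c change in Rα+/+ mice turned to 0.000544 for Cd86, 0.62 for Cebpb, 0.39 for Il4ra, 0.41 for Jun, 0.39 for Myc, 0.54 for Peli1, 0.79 for Socs3 and 0.69 for Stat6. In RαTd/Td mice it turned to 0.21 for Ccl24, 0.0775 for Cebpa, 0.61 for Cebpb, 0.18 for Fpr2, 0.64 for Il4ra, 1.39 for Irf4, 0.77 for Myc, 0.38 for Peli1, 0.48 for Socs3, 1.08 for Stat6 and 1.06 for Trem2. The genotype difference after PBS turned to -0.25 for Il4ra, -0.24 for Stat3 and -0.49 for Stat6 there, and for Stat6 to -0.00051 under quantile normalization and -0.0538 on total counts without Retnla. Centring and quantile normalization turned Irf4 to 0.15 and 0.16 and Trem2 to 0.14 and 0.16 in RαTd/Td mice, and Socs3 to 0.0334 and 0.0194 in Rα+/+ mice. Leaving out 1 mouse turned Mrc1 in Rα+/+ mice to -0.0186 (mouse 6) and Trem2 in RαTd/Td mice to above 0 (mice 4, 9, 10 and 11), over a range of -0.62 to 0.0951. The positive control probes read 853 to 1021 counts after PBS and 301 to 623 after IL-4c, and which scaling is right cannot be told from these values.

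No paired analysis was possible because the groups share no replicate numbers. The planned test for whole counts was not run, since values at the floor of 30 have no count. Counting error on Arg1 was at most 12.1%, so the number of mice limits the precision.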

Other observations

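Of the 16 tested genes of the alternative activation list, 6 were lower and 3 were higher in both PBS-treated RαTd/Td mice than in both PBS-treated Rα+/+ mice, and the median log2 difference of the list was 0. With 2 mice per group, 49.0% of all tested genes did not overlap. Besides Arg1 and Retnla, the lower ones were Cd163, Trem2, Mrc1 and Tgm2, and the higher ones were Ccl24, Cd36 and Tgfb1, and of these 7 none was called. The 3 described here were picked after their values were seen. Cd163, the haemoglobin scavenger receptor, read 230 and 278 normalized counts in PBS-treated Rα+/+ mice and 105 and 82.6 in PBS-treated RαTd/Td mice, a log2 difference of -1.43 (95% interval -3.55 to 0.69, adjusted p 0.401 by limma). Trem2 read 299 and 313 against 118 and 146, a difference of -1.22 (95% interval -2.69 to 0.26, adjusted p 0.311 by limma). Mrc1 read 162 and 203 against 123 and 135, a difference of -0.49 (95% interval -1.84 to 0.87, adjusted p 0.707 by limma). Ccl24 went the other way, at 1968 and 2341 against 2706 and 3502.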
